A study of Mus musculus with 7 samples.

Results

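The replication-dependent histone genes were described in RNA of cultured mouse haematopoietic stem cells after 48 h with a drug that disturbs DNA replication. Members were rows whose symbol names an H1, H2A, H2B, H3 or H4 gene of the H1f, H2ac, H2bc, H3c or H4c series and that stood above 0 in at least 2 of the 7 libraries. Of 52224 genes in the table, 76 matched by symbol and 65 were members: 9 of H1, 18 of H2A, 15 of H2B, 12 of H3 and 11 of H4. Of the 11 left out, 4 were listed at 0 in every library and 7 were above 0 in 1 library. The symbol rule also admitted H1f0 and H1f10, which are not tied to S phase, the testis gene H1f7 and 3 pseudogenes.

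The cells were wild-type C57BL/6J bone marrow cells sorted as lineage-negative, Sca-1+, c-Kit+, CD150+ and CD48-. They were cultured for 48 h with gemcitabine at 0.5 µM (Gem, n = 2 libraries), hydroxyurea at 100 µM (HU, n = 2) or the solvent DMSO (n = 3). Growing DNA strands take up gemcitabine in place of deoxycytidine. Hydroxyurea blocks ribonucleotide reductase, which supplies deoxynucleotides. The same DMSO libraries served both drug comparisons, and the labels do not name a separate mouse or culture for each library. The p-values thus cover the spread among libraries alone, which may be technical.

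Chromatin is built from nucleosomes, in which DNA is wound on H2A, H2B, H3 and H4, with H1 bound to the linker. Most of these proteins are made in S phase from clustered, intronless genes whose mRNAs end in a stem-loop in place of a poly(A) tail. The stem-loop binding protein SLBP binds that element during processing and translation, and these mRNAs are rapidly degraded when DNA synthesis is blocked. The labels name the Geo-seq method, which is known to prime complementary DNA on poly(A) tails, so mRNAs without a tail are not its intended template; the part of this in the values was not tested.

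The stem-loop was searched on the sense strand of the members' GENCODE M21 transcripts, as a stem of 6 base pairs that begins with GG and ends with CT on its 5′ side, around a loop of 4 bases that begins with TT. It was found in 38 of the 58 members with a transcript: 3 of 8 in H1, 10 of 15 in H2A, 9 of 13 in H2B, 8 of 12 in H3 and 8 of 10 in H4. Among 55383 other genes, 16 (0.0289%) held it. The members held 6 different stem-loops, and their sites are shown because they are the feature that sets these mRNAs apart. Capitals mark the stem-loop, and the letters around it are its neighbours in the mRNA.
H2ac24: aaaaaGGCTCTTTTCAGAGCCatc
H2ac8: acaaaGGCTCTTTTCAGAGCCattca
H2ac20: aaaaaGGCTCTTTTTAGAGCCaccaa
H1f2: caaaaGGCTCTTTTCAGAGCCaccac
H3c3: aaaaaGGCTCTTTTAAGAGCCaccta
H4c9: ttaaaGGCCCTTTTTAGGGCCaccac
H4c4: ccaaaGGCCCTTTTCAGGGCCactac
The form in H2ac24, H2ac8 and H1f2 was held by 24 members and by 0 of the H4 genes. The form in H3c3 was held by 5 members of H2B and H3, and that in H2ac20 by H2ac20 alone. The forms in H4c4 and H4c9 were held by 4 and 2 members, all H4, and a further 2 H4 members had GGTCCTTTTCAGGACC. No stem-loop was found in the transcripts used for H1f0, H1f5, H2bc4 or H2bc21, which says only that these letters are not in those transcripts. An annotated transcript that ends before the site would also be counted as without it.

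The members lie in clusters. By RefSeq coordinates (GRCm38.p6) 60 members matched, of which 48 were on chromosome 13 and 8 on chromosome 3. The promoter windows of H2ac24, H1f5 and H4c9 are shown because these genes, one from each of 3 classes, had lower values in both drugs. Each window holds 300 bases around the RefSeq start, and capitals mark the CCAAT box, the TATA motif (TATAA) and the box of H1 genes (AAACACA) on either strand, which can overlap. H2ac24 is at chr13:21833426-21833725, H1f5 at chr13:21780576-21780875 and H4c9 at chr13:22041313-22041612, all on the minus strand.
H2ac24: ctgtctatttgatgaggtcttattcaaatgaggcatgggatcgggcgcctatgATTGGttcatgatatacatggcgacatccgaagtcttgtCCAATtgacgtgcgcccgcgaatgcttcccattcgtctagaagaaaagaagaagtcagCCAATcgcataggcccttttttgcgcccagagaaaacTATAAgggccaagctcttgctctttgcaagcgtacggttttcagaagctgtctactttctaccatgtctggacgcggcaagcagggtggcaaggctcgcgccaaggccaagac
H1f5: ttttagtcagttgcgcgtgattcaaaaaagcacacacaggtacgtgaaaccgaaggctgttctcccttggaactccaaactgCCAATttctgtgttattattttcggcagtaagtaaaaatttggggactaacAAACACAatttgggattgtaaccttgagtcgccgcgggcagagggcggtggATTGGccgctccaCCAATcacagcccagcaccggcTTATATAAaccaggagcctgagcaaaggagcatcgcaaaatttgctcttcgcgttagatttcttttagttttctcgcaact
H4c9: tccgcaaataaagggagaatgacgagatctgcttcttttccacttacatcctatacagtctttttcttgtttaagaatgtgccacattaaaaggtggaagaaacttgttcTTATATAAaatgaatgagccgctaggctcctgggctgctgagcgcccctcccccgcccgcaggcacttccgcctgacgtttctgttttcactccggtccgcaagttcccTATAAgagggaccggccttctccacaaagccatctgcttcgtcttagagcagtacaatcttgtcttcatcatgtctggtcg
CCAAT was in 44 of 53 member windows (83.0%), against 41.1% of the windows of all 27025 genes, and TATAA in 39 of 53 (73.6%), against 28.0%. CCAAT was in every H2A, H2B and H3 window searched (15, 11 and 10) and in 3 of 9 H4 windows. The octamer ATTTGCAT was in 5 of 15 H2A and 5 of 11 H2B windows and in 0 of the H1, H3 and H4 windows, against 1.97% of all genes. AAACACA, the H1 box, was in 4 of 8 H1 windows, against 8.22% of all genes. A match is a description of the window and not a bound site.

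Near-identical copies limit what single members can show. Of the members, 29 shared over 50% of their 50-base stretches with another gene, and 6 shared none, among them H1f0, H1f5 and H2bc21. H2ac24 shared 93.1% with H2ac23, and their promoter windows shared a run of 200 bases, so reads of these genes may have been split between them. H2ac18 shared 89.4% with the overlapping gene Gm20634, and Gm20633 lies on its opposite strand over 586 bases. Reads are not stated to carry strand, so values of such pairs are uncertain.

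Facts of the whole table bear on every comparison. FPKM, a fragment count divided by transcript length and by library size, summed to 703016 and 729258 in Gem, 647760 and 651315 in HU, and 818775 to 832979 in DMSO. Genes above 0 numbered 27887 and 29158 in Gem, 29687 and 31153 in HU, and 21251 to 23047 in DMSO. The mean FPKM of 1766 olfactory and vomeronasal receptor genes, not known to serve blood cells and chosen after the data were seen, was 0.0735 and 0.0839 in Gem, 0.147 and 0.133 in HU, and 0.0131 to 0.0203 in DMSO. The log2 fold change of the median gene was -0.25 in Gem, and in HU it was -0.30. Results are therefore given as deposited and after trimmed-mean scaling, which sets the bulk of genes level between libraries; what the shift contributes to the members' values was not tested. Of the sort markers, Kit (c-Kit) stood at 35.7 and 29.0 FPKM in Gem, 30.4 and 34.8 in HU, and 40.2 to 48.2 in DMSO. Ly6a (Sca-1) stood at 26.15 and 21.2 in Gem, 14.7 and 18.3 in HU, and 34.3 to 48.3 in DMSO. Slamf1 (CD150) was low, at 0.61 and 1.05 FPKM in Gem, 0.69 and 0.90 in HU, and 0.41 to 1.25 in DMSO. Cd48, whose protein was absent at the sort, stood at 125 and 130.2 FPKM in Gem, 102 and 113 in HU, and 202 to 223 in DMSO.

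H2A transcripts made up most of the histone signal, and a single gene made up most of H2A. H2ac24, which encodes a canonical H2A, held 68.7% and 70.0% of the members' summed FPKM in Gem, 67.7% and 74.0% in HU, and 72.8% to 73.5% in DMSO. All members together held 0.123% and 0.127% of the FPKM in Gem, 0.116% and 0.125% in HU, and 0.165% to 0.206% in DMSO. The transcript of H2ac24 in the annotation has 482 bases and ends 3 bases after the stem-loop. The depth is unknown, and FPKM of such short genes is estimated poorly.

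**Figure D1:**
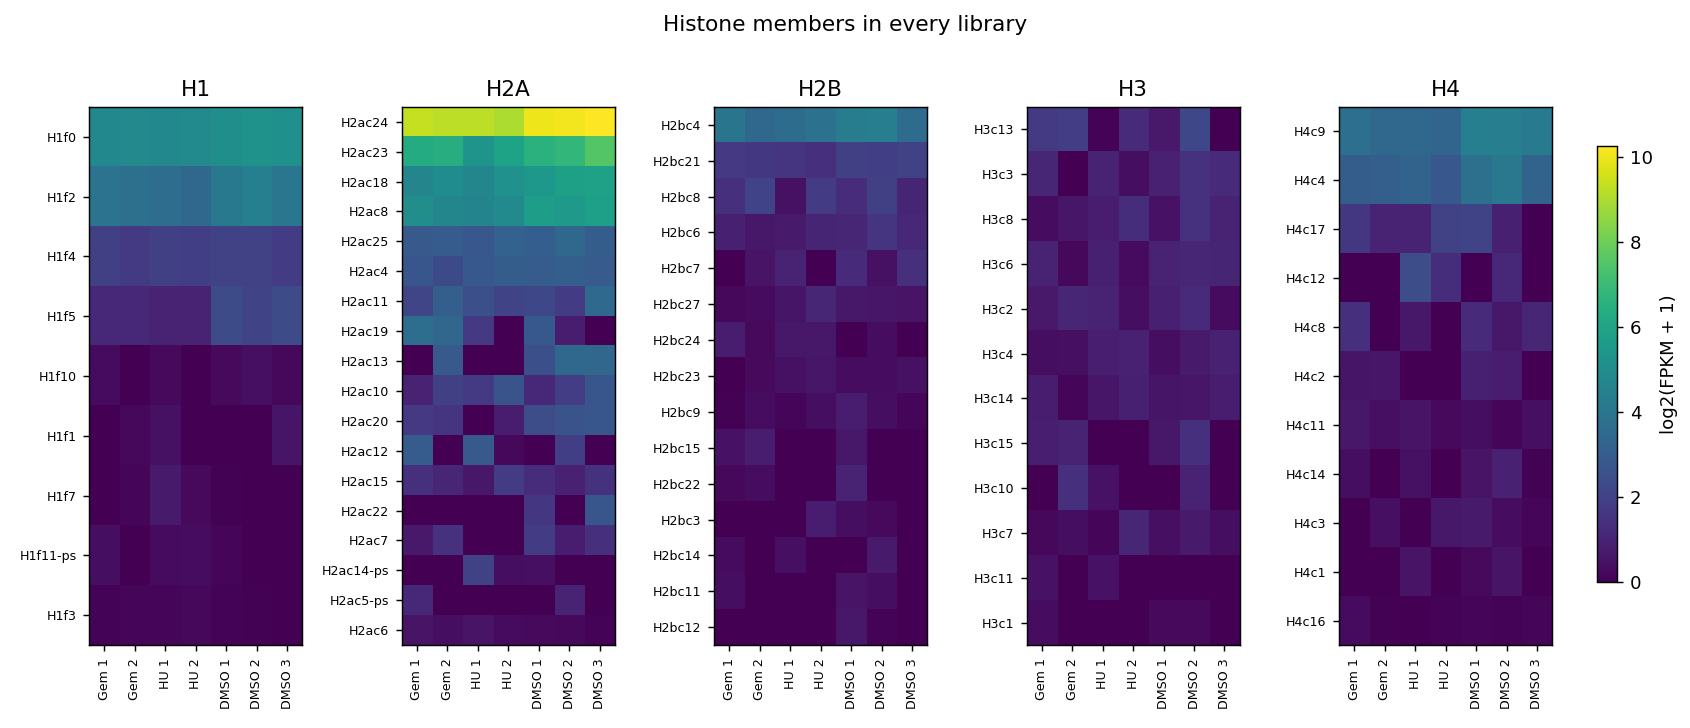
Heat maps of log2(FPKM + 1) of the 65 members (rows, ordered by mean within each class) in the 2 Gem, 2 HU and 3 DMSO libraries (columns). H2ac24 is the brightest row in every library, and most H2B, H3 and H4 rows are near 0.

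The classes differed in summed FPKM by orders of magnitude, in the order H2A, H1, then H4 and H2B, then H3 in every group. H2A summed to 802 ± 36.7 in Gem (SD, n = 2), 690.3 ± 39.2 in HU (n = 2) and 1381 ± 171 in DMSO (n = 3). H1 summed to 44.7 ± 0.658 in Gem, 43.5 ± 0.127 in HU and 59.8 ± 3.29 in DMSO, of which H1f0 was the largest share. H4 summed to 22.5 ± 3.92 in Gem, 23.1 ± 3.51 in HU and 36.7 ± 7.40 in DMSO. The ranges of H4 and H2B overlapped in each group. Within single libraries H4 was above H2B except in HU 2, at 20.6 against 21.7, so their order was not the same in every library. H2B summed to 19.9 ± 2.49 in Gem, 19.5 ± 3.15 in HU and 26.6 ± 6.28 in DMSO. H3 summed to 7.96 ± 0.255 in Gem, 6.29 ± 0.431 in HU and 8.58 ± 5.04 in DMSO, the lowest class although 12 genes were members.

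As a description without a test, the log2 ratio of the H2A sums was -0.78 for Gem over DMSO and -1.001 for HU over DMSO, and -0.48 and -0.63 after scaling. The ratio of the H4 sums was -0.71 for Gem and -0.67 for HU, and -0.40 and -0.30 after scaling. H1 and H2B had ratios of -0.42 and -0.42 for Gem and -0.46 and -0.45 for HU, which were -0.11 and -0.11 for Gem and -0.091 and -0.079 for HU after scaling. H3 had -0.11 for Gem and -0.45 for HU, and 0.20 and -0.076 after scaling, so its direction in Gem turned with the scaling. Without H2ac24 the H2A sum was 178 and 181 in Gem, 119 and 151 in HU, and 231 to 347 in DMSO. Without H1f0, which is not tied to S phase, the ratio of the H1 sums was -0.50 for Gem and -0.65 for HU. After scaling it was -0.19 and -0.28.

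**Figure D2:**
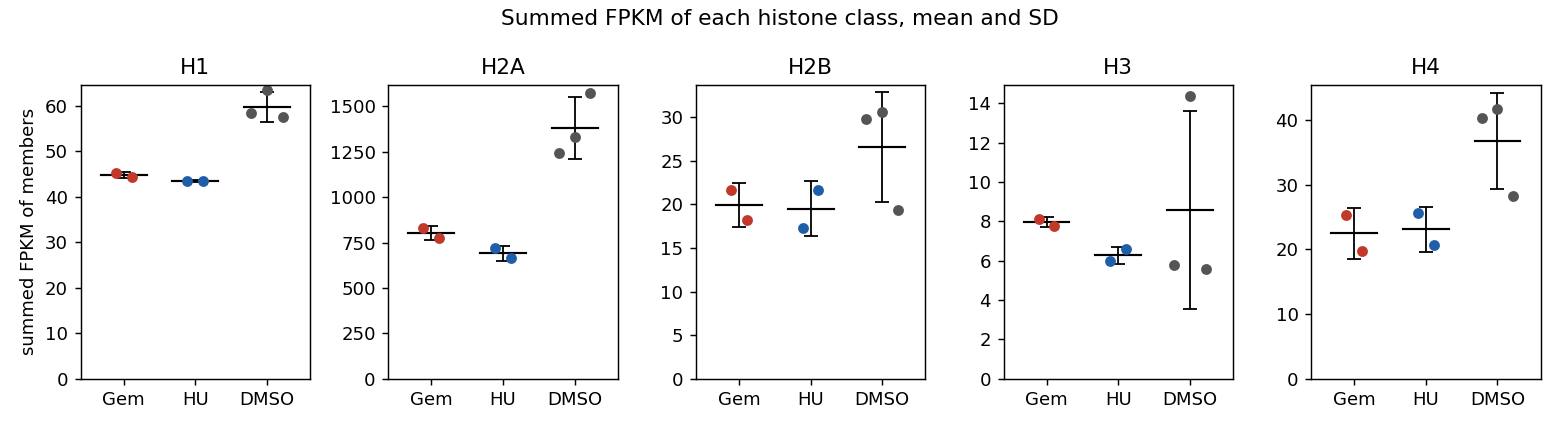
Summed FPKM (y axis, as deposited) of the members of each class in Gem, HU and DMSO; points are libraries, the horizontal line is the mean and the bar the SD. Both drugs lie below DMSO for H1, H2A and H4 with no overlap, and the drug and DMSO libraries overlap for H2B and H3.

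Of the 65 members, 36 had 2 or more libraries with an FPKM of 1 or higher and were tested: 4 of H1, 16 of H2A, 5 of H2B, 6 of H3 and 5 of H4. The 29 not tested had mean FPKM of 0.0843 to 0.603. In Gem against DMSO 7 of the 36 tested members (19.4%) fell at an adjusted p below 0.05 in limma, beside 23.2% of all 13865 genes tested, and 0 rose (1, H2ac19, with a replicate block or without DMSO 1). In HU against DMSO 12 of 36 (33.3%) fell, beside 35.5% of all genes, and 1 (2.78%) rose, beside 4.46%. As deposited, the share of members that fell was thus near the share of all genes. The median log2 fold change of the tested members was -0.39 in Gem and -0.37 in HU.

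After scaling 34 members were tested. In Gem 0 passed, where 0.464% of all genes fell, and 7 of the 34 (20.6%) had an unadjusted p below 0.05, beside 17.1% of all genes. In HU 5 of 34 (14.7%) fell, where 5.3% of all 14007 genes fell: H2ac20, H1f5, H4c9, H2ac24 and H2ac8. Before adjustment, 9 of the 34 (26.5%) had a p below 0.05 in HU, near the 25.7% of all genes. The members' scaled median was -0.21 in Gem and -0.21 in HU, against 0.014 and 0.025 for all genes. Leaving out a DMSO library from the scaled fit was chosen after the data were seen. In HU it gave 1 lower call without DMSO 1, 4 lower and 1 higher without DMSO 2, and 4 lower without DMSO 3. Over all genes, 145 of 13782, 329 of 13759 and 828 of 13802 fell in those fits. Without HU 1 or HU 2 only 1 HU library is left, and calls were then fewer both among members and over all genes. As deposited, leaving out Gem 2 or HU 1 also leaves 1 library in that group, and calls fell both among members and over all genes. In a bulk sample, fewer cells that make histone mRNA and less of it per cell cannot be told apart.

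Within H2A 4 of 16 tested members fell in Gem and 7 of 16 in HU, beside 23.2% and 35.5% of all genes. The class medians were -0.48 and -0.57, beside -0.25 and -0.30 for all genes. H2ac24 stood at 650.3 and 596 FPKM in Gem and 599 and 511 in HU, against 1011, 1077 and 1226 in DMSO. Every drug library was below every DMSO library, and the Gem and HU libraries overlapped. The log2 fold change was -0.82 ± 0.11 (SE) in Gem and -0.99 ± 0.11 in HU (limma adjusted p = 0.00687 and 0.00135). After scaling it was -0.52 ± 0.12 in Gem and -0.62 ± 0.12 in HU (adjusted p = 0.0982 and 0.0219), and the libraries still did not overlap.

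H2ac23, the neighbouring copy, stood at 79.2 and 83.1 FPKM in Gem and 38.4 and 60.1 in HU, against 93.6, 109 and 180.3 in DMSO. Both drugs lay below DMSO, and DMSO 3 was far above the other DMSO libraries. It fell in HU by 1.33 on the log2 scale (SE 0.28, limma adjusted p = 0.00971) and did not pass in Gem (-0.59 ± 0.28, adjusted p = 0.168). After scaling it did not pass in HU (-0.97 ± 0.29, adjusted p = 0.0827).

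H2ac8 stood at 33.0 and 25.1 FPKM in Gem and 23.6 and 28.1 in HU, against 52.7, 44.7 and 54.5 in DMSO. H2ac18 stood at 24.3 and 30.7 FPKM in Gem and 25.1 and 35.1 in HU, against 43.1, 55.5 and 57.2 in DMSO. For both genes every drug library was below every DMSO library. H2ac8 had log2 fold changes of -0.79 ± 0.15 in Gem and -0.94 ± 0.15 in HU (limma adjusted p = 0.0119 and 0.0031). After scaling H2ac8 passed in HU only (-0.59 ± 0.14, adjusted p = 0.0384), with -0.49 ± 0.14 in Gem (0.14). H2ac18 had -0.89 ± 0.18 in Gem and -0.78 ± 0.18 in HU (0.0155 and 0.0141), and -0.60 and -0.42 after scaling, where neither passed (0.18 and 0.222).

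H2ac20, from the chromosome 3 cluster, was low but ordered by group. It stood at 2.29 and 1.96 FPKM in Gem and at 0 and 0.75 in HU, against 4.38, 5.10 and 5.63 in DMSO. The 3 groups did not overlap, and HU was the lowest. The fold changes were -0.95 ± 0.26 in Gem and -2.18 ± 0.26 in HU (limma adjusted p = 0.0348 and 0.00144), and -0.71 ± 0.27 and -1.99 ± 0.27 after scaling (0.242 and 0.0108). The Gem call ended in 11 of 16 alternatives, any DMSO or Gem library left out, a replicate block and a pseudocount of 0.1 among them (adjusted p from 0.0159 to 0.287 over the 16); the HU call held in all 16. Scaling with a library left out was not among these 16 alternatives, and without DMSO 1 it left 1 member call in HU. HU differed from Gem in H2ac20 by less than the test could separate (Gem against HU 1.24 ± 0.28, adjusted p = 0.255).

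H2ac13 and H2ac7 passed in HU alone, where both were listed at 0 in both libraries. H2ac13 stood at 0 and 6.31 FPKM in Gem, against 4.72, 9.85 and 9.50 in DMSO. H2ac7 stood at 0.62 and 1.72 FPKM in Gem, against 2.50, 0.75 and 1.64 in DMSO. The Gem libraries overlapped DMSO in both genes, and 90.1% and 67.1% of their 50-base stretches were shared with other genes. No fold is given for HU; the limma adjusted p was 0.0142 for H2ac13 and 0.0213 for H2ac7, and 0.0535 and 0.0691 after scaling. The other 11 H2A members had mean FPKM of 0.267 to 7.37. Among them H2ac19, named after its values were seen, ran the other way at 12.1 and 9.42 FPKM in Gem, against 6.16, 0.74 and 0 in DMSO. It stood at 2.26 and 0 in HU, and did not pass in either drug (limma adjusted p = 0.075 in Gem and 0.751 in HU). Its 50-base stretches are shared to 100% with Gm20634, which also shares 89.4% of those of H2ac18, so its value is uncertain.

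Of H1, the linker histones, 2 of 4 tested members fell in Gem and 3 of 4 in HU, beside 23.2% and 35.5% of all genes. H1f5 stood at 1.2 and 1.29 FPKM in Gem and 0.95 and 1.04 in HU, against 4.15, 3.3 and 4.01 in DMSO. The drug libraries lay close together, far below DMSO, with no overlap. The log2 fold change was -1.10 ± 0.17 in Gem and -1.27 ± 0.17 in HU (limma adjusted p = 0.00823 and 0.00201). After scaling it was -0.88 ± 0.17 in Gem and -1.03 ± 0.17 in HU (0.0678 and 0.0147). In HU H1f5 passed in all 16 alternatives in which it was tested. Scaling with a library left out was not among them, and without DMSO 1 it left 1 member call in HU.

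H1f2 stood at 13.9 and 12.6 FPKM in Gem and 11.8 and 10.2 in HU, against 17.0, 20.8 and 15.5 in DMSO. It did not overlap DMSO in either drug, and it passed in HU (-0.64 ± 0.14, limma adjusted p = 0.0103) but not in Gem (-0.38 ± 0.14, 0.0809). After scaling it did not pass in HU (-0.30 ± 0.13, 0.216). H1f0, a linker histone of resting and differentiating cells, stood at 26.6 and 27.7 FPKM in Gem and 26.4 and 28.9 in HU, against 33.8, 36.2 and 34.9 in DMSO. Neither drug overlapped DMSO, and it fell by 0.35 in Gem and 0.33 in HU (SE 0.080, adjusted p = 0.0197 and 0.0152), close to the shift of the median gene. After scaling it was at -0.060 in Gem and 0.028 in HU, with overlapping libraries.

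H1f10 was at 0.23 and 0 FPKM in Gem and 0.20 and 0 in HU, against 0.20, 0.33 and 0.16 in DMSO, and was not tested. The other 5 H1 members had mean FPKM of 0.0843 to 2.72, the highest being H1f4, which did not pass.

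**Figure D3:**
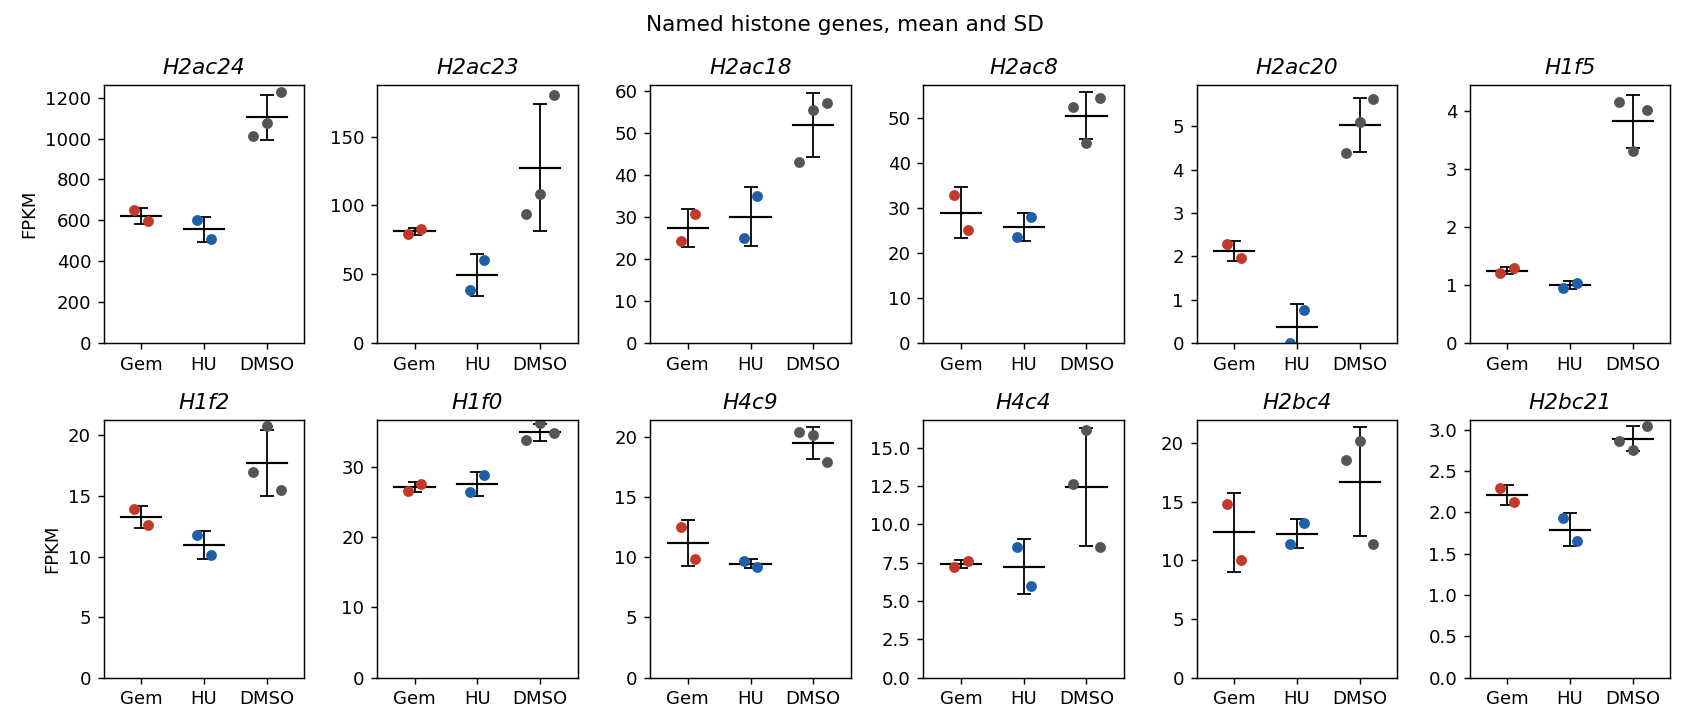
FPKM as deposited (y axis, from 0) of 12 named members in Gem, HU and DMSO; points are libraries, the line is the mean and the bar the SD. H2ac24, H2ac8, H2ac18, H2ac20, H1f5 and H4c9 are lower in both drugs without overlap, while H2bc4 overlaps; after scaling H1f0 no longer separates and in HU lies slightly above DMSO.

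Of H4 1 of 5 tested members fell in each drug, beside 23.2% of all genes in Gem and 35.5% in HU. H4c9 stood at 12.5 and 9.84 FPKM in Gem and 9.72 and 9.19 in HU, against 20.4, 20.2 and 17.9 in DMSO. All drug libraries were below all DMSO libraries. The log2 fold change was -0.76 ± 0.12 in Gem and -0.97 ± 0.12 in HU (limma adjusted p = 0.00904 and 0.00178), and -0.47 ± 0.11 and -0.63 ± 0.11 after scaling (0.104 and 0.018). In HU H4c9 passed in all 17 alternatives. Scaling with a library left out was not among them, and without DMSO 1 it left 1 member call in HU.

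H4c4 stood at 7.23 and 7.60 FPKM in Gem and 8.51 and 5.99 in HU, against 12.7, 16.2 and 8.51 in DMSO. DMSO 3 lay beside the drug libraries, and the gene did not pass in Gem (-0.64 ± 0.25, limma adjusted p = 0.101) or HU (-0.68 ± 0.25, 0.0638). Without DMSO 3 it passed in both as deposited (-0.87 and -0.91, 0.0214 and 0.0116). It did not pass in 14 of 17 alternatives in Gem and in 13 of 17 in HU. H4c12 was the only member called higher, in HU. It was listed at 0 in both Gem libraries and stood at 4.44 and 1.55 FPKM in HU, against 0, 1.29 and 0 in DMSO (HU 1.499 ± 0.46, 0.0372). That call ended in 12 of 16 alternatives, and 71.5% of the gene's 50-base stretches are shared with other genes. The other 8 H4 members had mean FPKM of 0.090 to 1.63.

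Of H2B 0 of 5 tested members passed in Gem and 1 of 5 in HU, where 23.2% and 35.5% of all genes fell. The log2 fold changes were below 0 for 4 of 5 in Gem and 5 of 5 in HU, with medians of -0.39 and -0.38, beside -0.25 and -0.30 for all genes. H2bc4, its most abundant member, stood at 14.8 and 10 FPKM in Gem and 11.4 and 13.2 in HU, against 18.6, 20.2 and 11.4 in DMSO. The groups overlapped through DMSO 3, and the gene did not pass (-0.39 ± 0.25 in Gem and -0.38 ± 0.25 in HU, limma adjusted p = 0.285 and 0.261). Without DMSO 3 it passed in both as deposited (-0.63 and -0.62, 0.0488 and 0.0371). In the other 16 of 17 alternatives it passed in neither drug. H2bc21 stood at 2.30 and 2.13 FPKM in Gem and 1.93 and 1.65 in HU, against 2.87, 2.75 and 3.05 in DMSO. It fell in HU (-0.48 ± 0.16, 0.0428), not in Gem (-0.27 ± 0.16, 0.228), and the HU call ended in 12 of 16 alternatives. The other 13 H2B members had mean FPKM of 0.0886 to 1.87.

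H3 members were low, and 0 of 12 were above the receptor background, described below, in every library. In DMSO, where that background was 0.07 to 0.11 FPKM, H3c6 stood at 1.02, 1.15 and 1.09. The same gene stood at 1.03 and 0.17 in Gem and at 0.86 and 0.23 in HU. Of the 6 tested H3 members, 0 passed in either drug, where 23.2% and 35.5% of all genes fell. None of the 6 had an unadjusted p below 0.05. H3c13 stood at 2.38 and 2.62 FPKM in Gem and 0.06 and 1.33 in HU, against 0.62, 3.64 and 0 in DMSO. H3c3 stood at 1.16 and 0 FPKM in Gem and 1.03 and 0.29 in HU, against 0.92, 1.76 and 1.35 in DMSO. In both genes each drug overlapped DMSO. The other 10 H3 members had mean FPKM of 0.0943 to 0.889 and single values of at most 1.77.

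The level of background was set beside the members as the 95th percentile of the receptor genes, which was 0.28 and 0.358 FPKM in Gem, 0.53 and 0.46 in HU, and 0.07 to 0.11 in DMSO. Above it in every library were 18 of the 65 members: 4 of 9 in H1, 9 of 18 in H2A, 3 of 15 in H2B, 0 of 12 in H3 and 2 of 11 in H4. Taken library by library, 42 and 32 members were above it in Gem, 32 and 32 in HU, and 56, 55 and 39 in DMSO. Members above 0 numbered 52 and 48 in Gem, 50 and 44 in HU, and 57, 57 and 44 in DMSO. DMSO 3 thus held as few as the lowest drug library. It also had the highest H2A sum, 1573, and the lowest H4 and H2B sums of the DMSO libraries, 28.2 and 19.4. Without DMSO 3 there were 9 member calls in Gem and 13 in HU as deposited, all lower. Over all 13701 genes tested in that fit, 3204 were called lower in Gem and 4672 in HU.

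**Figure D4:**
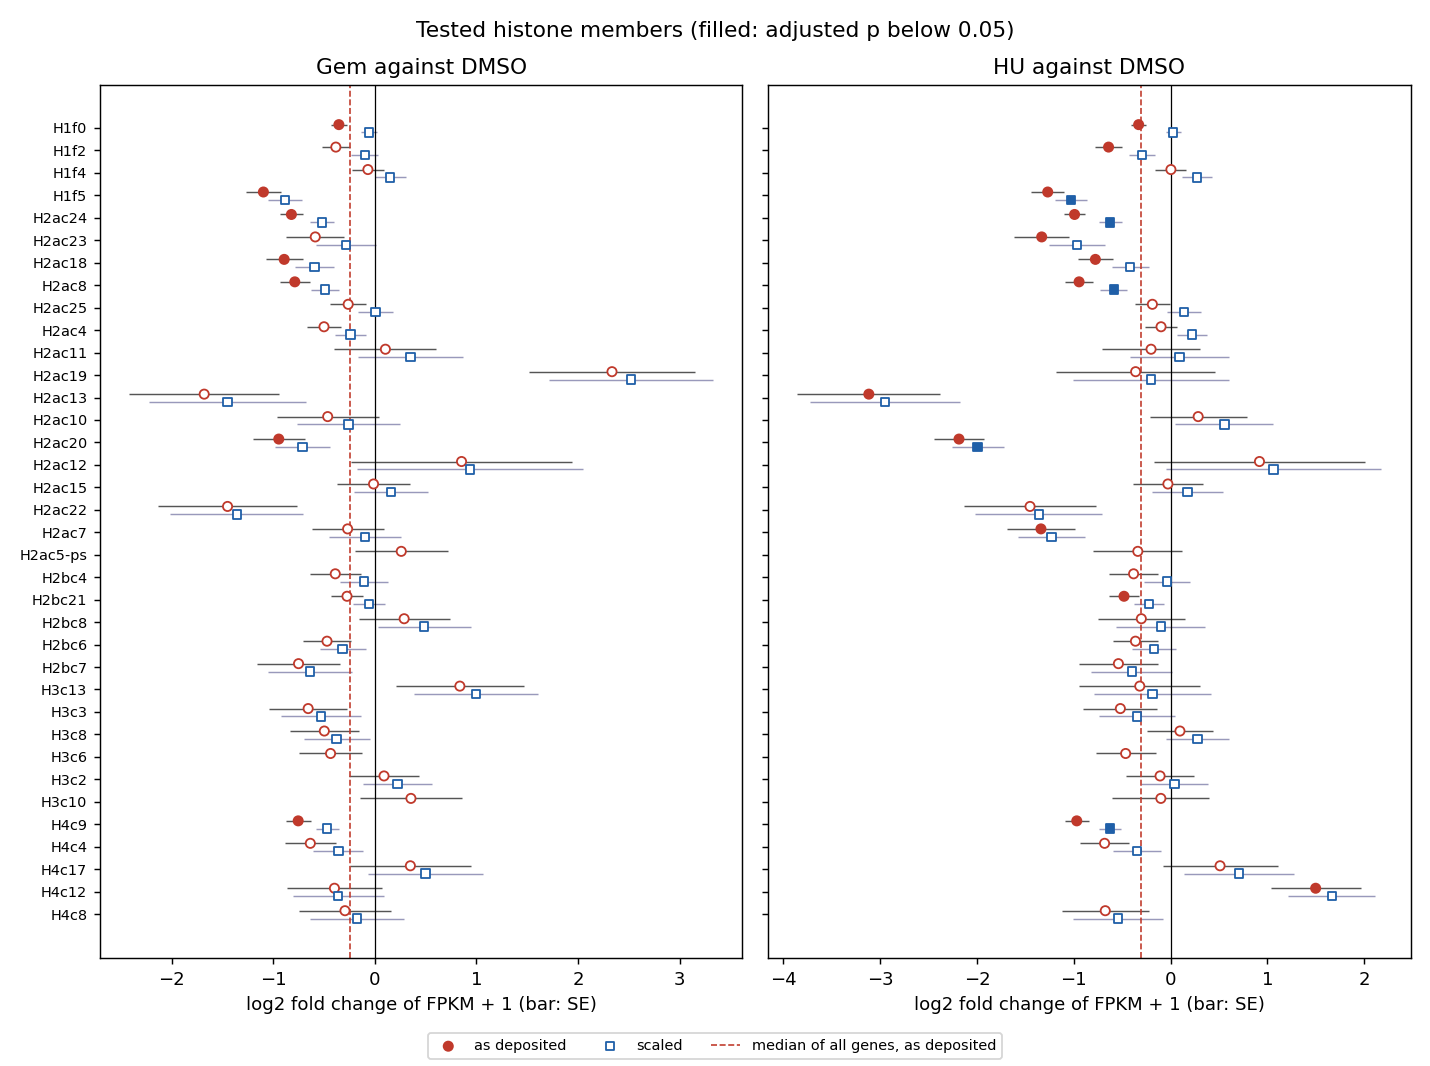
Log2 fold change with its SE (x axis) of the 36 tested members (rows) in Gem against DMSO and HU against DMSO; circles are values as deposited, squares values after scaling, filled where the adjusted p was below 0.05. Scaling moves the squares to the right of the circles. Values below 0 as deposited lie above 0 after scaling for 3 members in Gem (H1f4, H2ac15 and H2ac25) and 6 in HU (H1f0, H2ac4, H2ac11, H2ac15, H2ac25 and H3c2), and filled squares remain for 5 members in HU and for 0 in Gem.

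Gem and HU were set against each other directly. Of the 36 tested members 0 passed, beside 0.101% of all genes, and 5 (13.9%) had an unadjusted p below 0.05, beside 10.7% of all genes. H2ac24 differed by 0.17 ± 0.12 (log2, Gem over HU, limma adjusted p = 0.666), H1f5 by 0.17 ± 0.19 (0.793), H4c9 by 0.21 ± 0.14 (0.617) and H2ac23 by 0.74 ± 0.31 (0.456). These p-values do not show that the drugs act alike on the members.

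Levels were also read against what the rule did not use. The 20 members whose annotated transcript has at most 100 bases after the stem-loop had a median mean FPKM of 0.856 and held 85.6% of the members' FPKM, through H2ac24. The 18 with more than 100 bases after it had a median of 0.589, and the 20 with a transcript but no stem-loop found had 1.07. Some of these 20 transcripts are short, such as 312 bases for H4c12 and 393 for H2ac13. They may end before the site, so this group can reflect the annotation and not the mRNA. The tested members of the 3 sets, in the order given, numbered 13, 8 and 13. Of these 3, 2 and 2 fell in Gem (23.1%, 25.0% and 15.4%, beside 23.2% of all genes), and 5, 3 and 4 fell in HU (38.5%, 37.5% and 30.8%, beside 35.5%). Of the 29 tested members on chromosome 13, 4 fell in Gem (13.8%) and 8 in HU (27.6%). Of the 5 tested on chromosome 3, 2 fell in Gem (40.0%) and 3 in HU (60.0%), beside the same 23.2% and 35.5% of all genes.

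Slbp, which encodes the stem-loop binding protein and was named after its values were seen, stood at 94.4 and 83.3 FPKM in Gem and 82.9 and 80.6 in HU, against 113, 103 and 129.9 in DMSO. It fell in both drugs as deposited (-0.37 ± 0.11 and -0.49 ± 0.11, limma adjusted p = 0.0426 and 0.0108) and did not pass after scaling (-0.071 and -0.12, 0.8 and 0.539). Npat, which drives histone transcription at S phase and was also named after its values were seen, averaged 6.24 FPKM in Gem and 5.26 in HU, against 6.94 in DMSO, and did not pass. Of 29 tested genes of histone mRNA processing and transcription, 9 fell in Gem (31.0%, beside 23.2% of all genes) and 18 in HU (62.1%, beside 35.5%) as deposited, with medians of -0.32 and -0.44. After scaling 0 passed, with medians of -0.042 and -0.084. The 3 with the smallest p were Cpsf3, the endonuclease that cuts histone pre-mRNA, Snrpb, a protein of the U7 particle, and Cstf3, a cleavage factor. Cpsf3 stood at 47.5 and 43.2 FPKM in Gem and 39.6 and 42.6 in HU, against 57.6 to 59.3 in DMSO. Snrpb averaged 285 FPKM in Gem and 270.4 in HU, against 391 in DMSO. Cstf3 averaged 16.3 FPKM in Gem and 14.1 in HU, against 23.7 in DMSO.

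Of 30 tested S phase genes, 13 fell in Gem (43.3%, beside 23.2% of all genes) and 22 in HU (73.3%, beside 35.5%) as deposited, and 0 rose. Their median log2 fold changes were -0.43 in Gem and -0.52 in HU, beside -0.25 and -0.30 for all genes. After scaling 0 of 30 passed in either drug, with medians of -0.15 and -0.18, beside 0.014 and 0.025 for all genes. Pcna, the sliding clamp of replication, stood at 144 and 125 FPKM in Gem and 116 and 111 in HU, against 212, 171 and 219 in DMSO. Prim2, a primase subunit, averaged 15.8 FPKM in Gem and 12.8 in HU, against 21.5 in DMSO. Nasp, a chaperone of H1, H3 and H4, averaged 25.7 FPKM in Gem and 22.2 in HU, against 35.5 in DMSO.

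Replacement histones, whose mRNAs carry poly(A) tails, stood far above their replication-dependent counterparts in H3. H3f3a averaged 587 ± 5.03 FPKM in Gem, 488 ± 54.2 in HU and 770.4 ± 27.6 in DMSO, and H3f3b averaged 521 ± 7.43 in Gem, 468 ± 39.9 in HU and 626 ± 14.7 in DMSO (SD). Of 10 tested replacement genes, which include H1f0, 6 fell in Gem (60.0%, beside 23.2% of all genes) and 7 in HU (70.0%, beside 35.5%) as deposited, with medians of -0.37 and -0.44. After scaling 0 passed, with medians of -0.11 and -0.072. Macroh2a1, a large H2A variant, averaged 74.3 FPKM in Gem and 69.5 in HU, against 104 in DMSO. Of 15 genes of the poly(A) machinery, 7 fell in Gem (46.7%, beside 23.2% of all genes) and 11 in HU (73.3%, beside 35.5%) as deposited, with medians of -0.33 and -0.43. After scaling 0 passed, with medians of -0.068 and -0.10. The smallest p-values were those of Wdr33, which reads the poly(A) signal, Nudt21, a cleavage factor subunit, and Papola, the poly(A) polymerase. In HU against DMSO they averaged 21.8 against 31.4, 32.1 against 48.1 and 49.7 against 73.5 FPKM, and in Gem 25.6, 35.5 and 60.0. The 12 genes named from these 4 lists fell in HU (limma adjusted p from 0.00192 to 0.00745), and 11 of them fell in Gem (0.0131 to 0.0451), Papola being the exception (0.0638). After scaling 0 of the 12 passed, with a smallest adjusted p of 0.0516 for Prim2 in HU.

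Markers of the cell types that the cultures could hold were read as well, and their part in the histone values was not tested. The 10 stem cell and sort markers other than Cd48 summed to 221 and 201 FPKM in Gem, 179 and 181 in HU, and 256 to 261 in DMSO. Cd48, whose values are given above, fell in both drugs as deposited (limma adjusted p = 0.00563 in Gem and 0.00102 in HU) and in HU after scaling (0.0606 and 0.009). The 12 granulocyte and monocyte markers summed to 48334 and 50015 in Gem, 44903 and 48393 in HU, and 39571 to 44128 in DMSO. Lyz2 alone, the lysozyme of granulocytes and monocytes, stood at 34347 and 35554 FPKM in Gem, 32469 and 36422 in HU, and 21718 to 30761 in DMSO, and did not pass. The other 11 summed to 15667 and 12779 in Gem, 12434 and 11970 in HU, and 12129 to 18947 in DMSO. The 8 erythroid markers summed to 26.7 and 33.2 in Gem, 34.9 and 35.0 in HU, and 53.2 to 99.2 in DMSO; the 6 megakaryocyte markers summed to 1705 and 1801 in Gem, 1359 and 1556 in HU, and 1738 to 2815 in DMSO. The 6 lymphoid markers summed to 94.5 and 111 in Gem, 99.0 and 104 in HU, and 118 to 169 in DMSO. As deposited, in Gem and HU, 3 and 5 of 8 tested stem cell markers other than Cd48 fell, 2 and 3 of 12 granulocyte and monocyte, 3 and 1 of 7 erythroid, 0 and 2 of 6 megakaryocyte and 0 and 1 of 2 lymphoid markers. Over all genes 23.2% fell in Gem and 35.5% in HU. The shares of granulocyte and monocyte markers (16.7% and 25.0%) and of megakaryocyte markers (0% and 33.3%) were below these. After scaling 0 and 1 of the stem cell markers other than Cd48 fell, the 1 being Ly6a in HU (limma adjusted p = 0.029). Of the erythroid markers 1 and 1 fell, and 0 in the other lists, beside 0.464% and 5.3% of all genes.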

How the data were processed

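Complementary DNA was made by Geo-seq from miRNeasy RNA, and libraries with a TruePrep kit, per the labels' protocols. The authors deposited 1 table of FPKM for 52224 genes and 7 libraries; 0 columns were unused. Tools in the submitters' processing notes are Cufflinks 2.1.1, Bowtie 0.12.9, DESeq2 and HTSeq, with the build mm10 and no role or order. The tool behind the FPKM and its annotation: not given in the sources used here. Depth is unknown, and intervals that need it are left out.

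limma 3.58.1 in R 4.3.3 was run on log2(FPKM + 1), a scale that understates changes of low genes. One model held the 3 groups, with a mean-variance trend and no block. A gene was tested where 2 or more libraries had an FPKM of 1 or higher (13865 genes, or 14007 after scaling). Tests were two-sided, with Benjamini-Hochberg adjustment over all genes tested and calls at an adjusted p below 0.05. Trimmed-mean scaling dropped 30% of ratios and 5% of levels at each end. The fit was tested on simulated data.

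Members, lists and tests were chosen with earlier results of these data known. Members given in every library were the 2 most abundant of each class, the 4 called members with the smallest p per direction and contrast, H1f0 and H1f10; other called members were added, and up to 3 passing genes per list by smallest p. Lists covered histone mRNA processing and transcription, replacement histones, the poly(A) machinery, S phase genes and cell type markers. The alternatives tried were no filter, a filter at a mean FPKM of 5, a pseudocount of 0.1, quantile normalization, a TPM scale, library weights, no trend, trimmed-mean scaling, a replicate block, only the compared groups, each library left out, and members without H1f0, H1f10 and testis genes. Scaling together with a left-out library was chosen after the data were seen and is not part of the tallies of alternatives for single genes. Sequences are from RefSeq (GRCm38.p6, the assembly of mm10) and GENCODE M21. Figures were drawn in Python 3.11.15.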

Additional observations from a re-analysis of the deposited data

How the results depend on the processing

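The count of members called in Gem against DMSO (7 as deposited) was 4 with no filter, 3 on the TPM scale, 0 after quantile normalization and 0 after trimmed-mean scaling; it was 0 to 9 with a library left out, and 0 in each such fit after scaling. In HU against DMSO (13) it was 8 at a mean FPKM of at least 5, 6 on the TPM scale, 3 after quantile normalization and 5 after trimmed-mean scaling; it was 6 to 13 with a library left out, and 1 to 6 after scaling. Gem against HU gave 0 in every alternative. Over all genes the calls were 208 higher and 3213 lower in Gem and 619 and 4922 in HU as deposited, and 69 and 65 in Gem and 746 and 742 in HU after scaling. Lower calls over all genes in Gem were 1286 of 39614 with no filter, 332 of 14002 on the TPM scale and 20 of 13865 after quantile normalization. In HU they were 5000 of 8512 at a mean FPKM of at least 5, 857 on the TPM scale and 249 after quantile normalization. The fall in member calls in Gem thus came with a fall over all genes. Lower calls over all genes also moved with the library left out. Without DMSO 1, as deposited, they were 1428 of 13675 in Gem and 3565 of 13675 in HU, where 5 and 10 members fell. With a replicate block the member calls were 8 in Gem (7 lower, and H2ac19 higher). In HU they were 12 with that block (11 lower, and H2ac10 higher in place of H4c12). Without DMSO 1 H2ac19 was also called higher in Gem. The numbers are not stated to pair libraries, so the main fit had no block. Same-numbered libraries correlated at -0.074 to 0.055. That cannot decide on pairing, because the 2 libraries of a drug group mirror each other around their mean. After scaling 3 tested members changed sign in Gem (H1f4, H2ac15 and H2ac25) and 6 in HU (H1f0, H2ac4, H2ac11, H2ac15, H2ac25 and H3c2). Over all alternatives, among genes named in the text with values, those that changed sign were H1f0 in HU (0.00276 on the TPM scale, 0.090 quantile, 0.028 scaled), H2ac7 in Gem (0.11 without Gem 1; -0.64 to 0.11 over libraries left out) and H3c13 in HU (0.30 without DMSO 2, 0.25 without HU 1; -0.89 to 0.30). H1f4 did so in Gem (0.077 TPM, 0.059 quantile, 0.15 scaled, 0.046 without Gem 2; -0.18 to 0.046) and in HU (-0.029 with library weights, -0.060 with the block or without DMSO 3, -0.023 without HU 1; -0.060 to 0.040). H2ac19 did so in HU (0.45 without DMSO 1, 0.49 without HU 2; -1.21 to 0.49), and Npat in Gem (0.049 TPM, 0.088 quantile, 0.14 scaled). In Gem they were also, after quantile normalization, Cpsf3 (0.00482), H3f3a (0.055), H3f3b (0.14), Papola (0.089), Slbp (0.022) and Wdr33 (0.048), and after scaling H3f3b (0.041), Papola (0.011) and Wdr33 (0.010). In HU quantile normalization turned H3f3b (0.23), Slbp (0.040) and Snrpb (0.12). The cause was not tested. Depth is unknown, and values near 0 limit most H2B, H3 and H4 members.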
